A study of Musculus with 2 samples.

Results

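Stromal cells with Fmo2, Inmt and Gdf10 were studied in subcutaneous white adipose tissue (sWAT) of mice, where they formed 708 of 26637 cell barcodes. A cell was taken when it had 500 or more detected genes, at most 10% of its unique molecular identifiers (UMIs) from mitochondrial genes, and 10 or more UMIs of the proteoglycan gene Dcn. It also had no UMI of Ptprc, Pecam1 or Epcam, which mark blood, vessel and epithelial cells, and 3 or more UMIs of Fmo2, Inmt and Gdf10 together, with 2 or more of these genes detected. These are called gated cells here. The 11035 cells that met all requirements but the last are called stromal cells, and the 10327 of them outside the gate are the other stromal cells. Since Fmo2, Inmt and Gdf10 chose the cells, and every other gene was read in those cells, differences between gated and other stromal cells are descriptions and were given no test. The values that chose the cells were 336 CPM (UMIs of a gene per 1000000 UMIs summed over the cells of a group) of Fmo2 in LPCAT3-AKO and 381 CPM in Control gated cells against 19.6 and 19.6 CPM in other stromal cells, 338 and 335 against 21.7 and 5.58 CPM of Inmt, and 232 and 303 against 30.4 and 27.9 CPM of Gdf10.

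The study sequenced the stromal vascular fraction, the cells left when mature fat cells are removed, by 10x Genomics single-cell RNA sequencing. There was 1 LPCAT3-AKO library (genotype LPCAT3 knockout) and 1 Control library (genotype WT). The series asks how phosphatidylcholine remodelling in fat bears on insulin sensitivity, and LPCAT3 is an enzyme that re-acylates lysophosphatidylcholine, with a preference for polyunsaturated chains. The labels give the mice as 5 weeks old and the text of the series as 2 months old and CD-fed, so the age is unsettled. The sources used here do not give the driver of the deletion, its exons, the sex of the mice or how many made up each library, nor what CD stands for. With 1 library per group, genotype, animals and preparation cannot be told apart, no test between the groups was possible, and all intervals cover counting error only.

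Adipose stroma holds several kinds of fibroblast-like cells. Those with Dpp4 and Pi16 are described in mice as progenitors, and those with Col15a1 and Icam1 as preadipocytes nearer to fat cells. A smaller population with F3, the cell-surface initiator of blood coagulation known as tissue factor or CD142, has been described in mouse subcutaneous fat as restraining fat cell formation, a role that other work has disputed. Fmo2 (a flavin monooxygenase that oxidises drugs and other small molecules), Inmt (a methyltransferase of indoleamines and other amines), Gdf10 (a secreted ligand of the TGF-beta family), Mgp (a vitamin K dependent inhibitor of calcification) and Clec11a (a secreted bone growth factor also called osteolectin) have been reported together with F3.

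The libraries held 119355147 UMIs in LPCAT3-AKO and 111669076 UMIs in Control. The median depth was 9889 UMIs in LPCAT3-AKO and 8390 UMIs in Control gated cells, against 9201 and 9607 UMIs in the other stromal cells of those libraries. The libraries shared 58 barcodes, of which none was a gated cell in both. Lpcat3 had 34.2 CPM in LPCAT3-AKO and 35.1 CPM in Control gated cells. A 10x tag can lie outside a deleted part, and the fraction lacks mature fat cells, so this does not check the deletion. Markers of other cell types were low or not higher than in other stromal cells, apart from mural and Schwann markers. All 6 vascular endothelial markers together had 2.66 CPM in LPCAT3-AKO and 5.14 CPM in Control gated cells, with Pecam1 at 0 by the gate, and the 5 lymphocyte markers had 0.614 and 3.43 CPM. The 6 macrophage markers summed to 143 and 184 CPM in gated cells, against 200.6 and 218 CPM in other stromal cells. The 8 mural markers summed to 77.3 and 80.2 CPM in gated against 49.7 and 40.4 CPM in other stromal cells, and the 5 Schwann markers to 67.1 and 55.7 against 57.5 and 51.3 CPM. Their part in the results was not tested.

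The label F3-high held only in part. F3 had 33.7 CPM (28.8 to 39.3) in LPCAT3-AKO gated cells against 6.42 CPM (5.73 to 7.17) in the other stromal cells of that library, a ratio of 5.25 (4.33 to 6.36). In the Control library it had 30 CPM (23.4 to 37.9) in gated against 4.22 CPM (3.67 to 4.82) in other stromal cells, a ratio of 7.12 (5.35 to 9.37). Yet most gated cells had no UMI of F3. It was detected in 83 of 458 gated cells of the LPCAT3-AKO library, or 18.1% (14.7 to 22.0), and in 31 of 250 of the Control library, or 12.4% (8.58 to 17.1). Other stromal cells had an F3 UMI in 4.10% and 2.63%, and cells with Ptprc and at most 1 Dcn UMI, at median depths of 7371 and 6777 UMIs, in 4.58% and 3.31%. With every cell thinned to 4000 UMIs, leaving out 25 LPCAT3-AKO and 19 Control gated cells that were shallower, F3 was detected in 11.1% and 7.36% of gated cells. The unthinned share over all other stromal cells was at or below that in blood cells. It was uneven among them, at 7.76% and 9.29% in cells with Col15a1 and Icam1 and 2.31% and 1.53% in cells with Dpp4 and Pi16.

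Clec11a and Mgp, which the gate did not use either, were also higher in gated cells. Clec11a had 40.3 CPM in gated against 7.05 CPM in other stromal cells of the LPCAT3-AKO library, and 35.1 against 5.01 CPM in those of the Control library. It was detected in 22.5% of LPCAT3-AKO and 20.4% of Control gated cells, against 0.550% and 0.365% of Ptprc cells. Mgp had 634 CPM in gated against 168 CPM in other stromal cells of the LPCAT3-AKO library (log2 ratio 1.91), and 721 against 87.6 CPM in those of the Control library (3.03). Vit, which codes for the matrix protein vitrin, had 41.1 CPM in gated against 6.95 CPM in other stromal cells of the LPCAT3-AKO library, and 43.7 against 6.75 CPM in those of the Control library. Abcg1, a cholesterol exporter also reported for F3-high cells, stayed at 5.52 and 2.14 CPM in gated cells. The gate therefore enriched F3, Clec11a, Mgp and Vit without holding mainly F3-positive cells, and the cells are named here by the genes of the gate. Of 12 markers of F3-high cells in a list that includes these genes, 8 were abundant enough for the size rule given further on, and 7 of those were higher in both libraries, 3 of them gate genes. Over all genes tested by that rule, 2.78% were higher in both libraries.

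Levels of F3, Clec11a, Mgp and progenitor genes changed with the UMIs of the gate genes. These are levels summed over cells, and whether single cells form a gradient or a changing mix was not tested. Stromal cells were ordered by the sum of Fmo2, Inmt and Gdf10 UMIs, and F3, Clec11a and Mgp were low in cells without any of these UMIs and highest in cells with 10 or more. In the LPCAT3-AKO library F3 had 5.42 CPM at a sum of 0, 9.10 CPM in gated cells with 3 to 4 UMIs, 22.7 CPM with 5 to 9 and 75.8 CPM (62.2 to 91.4) with 10 or more. In the Control library it had 2.12, 11.0, 44.1 and 44.4 CPM (29.3 to 64.6) in the same order, so the last step was within counting error there, and 7 of the 11 UMIs at 3 to 4 came from 1 cell. Clec11a reached 89.7 CPM (74.9 to 107) in LPCAT3-AKO and 88.8 CPM (66.7 to 116) in Control cells with 10 or more UMIs, against 10.9 and 12 CPM with 3 to 4. Mgp had 1208 and 1774 CPM at the top, against 293 and 223 CPM with 3 to 4. Dpp4, a membrane peptidase that marks progenitors, ran the other way, with 224 and 93.7 CPM at 10 or more UMIs against 401 and 443 CPM at 0. Pi16, a secreted peptidase inhibitor of the same cells, had 832 and 495 CPM at the top against 2949 and 2906 CPM at 0.

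**Figure D1:**
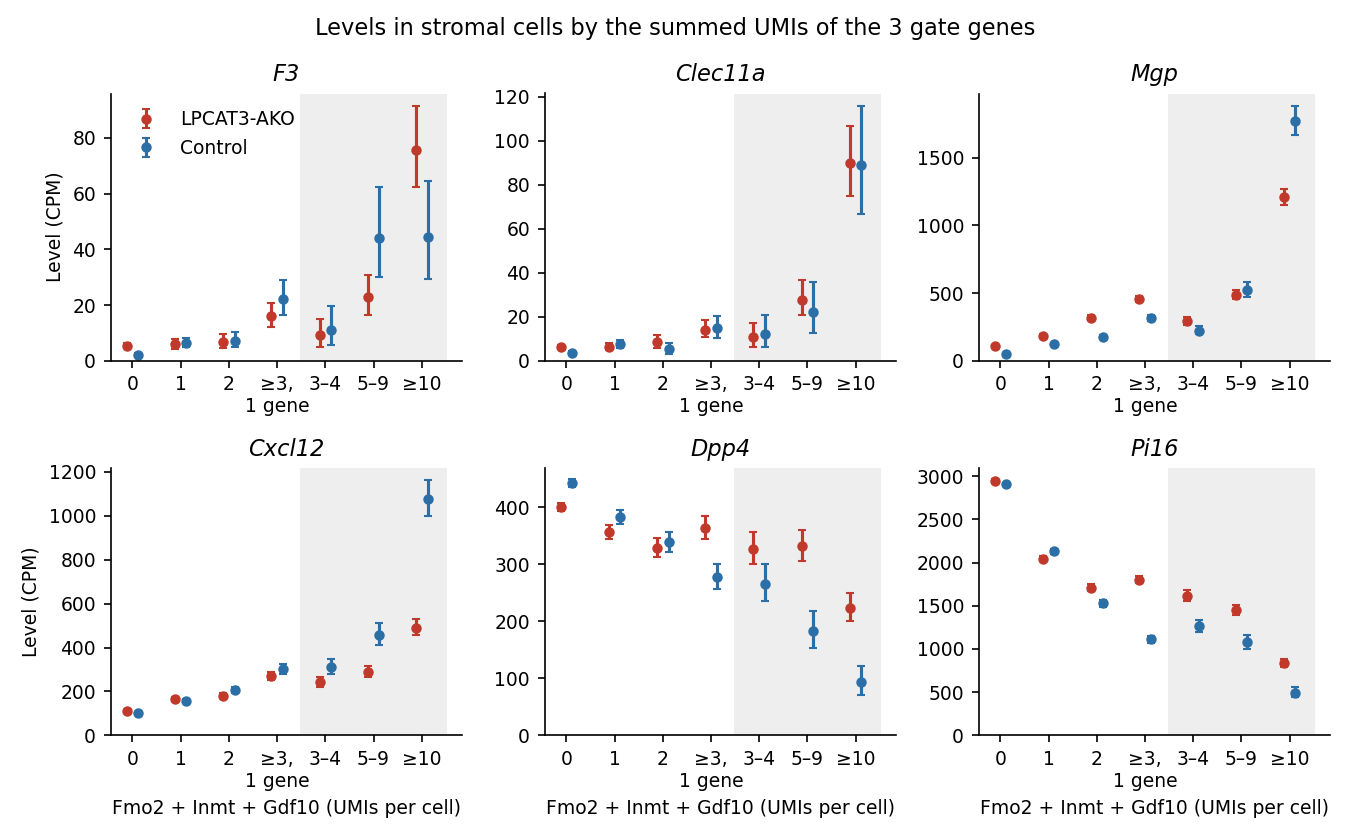
Levels of 6 genes (CPM, linear axes) in stromal cells grouped by the UMIs of Fmo2, Inmt and Gdf10 per cell. Cells with 3 or more UMIs of only 1 of these genes stand apart as ≥3, 1 gene. Grey marks the gated cells, red points the LPCAT3-AKO library, blue points the Control library and bars the 95% counting intervals. F3 is highest at 10 or more UMIs in the LPCAT3-AKO library (75.8 CPM) and level with 5 to 9 UMIs in Control, while Pi16 is lowest at 10 or more in both.

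Cells near the threshold held few F3 UMIs. Gated cells with exactly 3 UMIs numbered 90 in LPCAT3-AKO and 61 in Control, and cells just outside, with 2 UMIs of 2 genes, numbered 80 and 105. Just inside, F3 had 7.27 and 16.4 CPM, and just outside 4.75 and 1.79 CPM, with intervals that overlap in the LPCAT3-AKO library (2.92 to 15 inside and 1.30 to 12.2 outside). Of the 10 Control F3 UMIs just inside, 7 lay in 1 cell, so no difference across the threshold is read from them. Mgp had 285 and 183 CPM just inside and 323 and 127 CPM just outside, where 1 LPCAT3-AKO cell held 35.3% of the Mgp UMIs. The share of gated cells among a cell's nearest neighbours also went up with the sum. Each stromal cell's 15 nearest neighbours were found in its own library on 30 principal components of 2000 variable genes, without Fmo2, Inmt and Gdf10. Gated cells with 10 or more UMIs had 63.8% gated neighbours in LPCAT3-AKO and 58.6% in Control, gated cells with 3 to 4 UMIs 16.6% and 14.6%, cells outside the gate with 3 or more UMIs of 1 gene 16% and 8.17%, and cells with none of these UMIs 3.13% and 1.90%. Gated cells were 8.22% and 4.58% of stromal cells in those libraries.

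F3-positive gated cells had more Mgp, Clec11a and Gas6 than F3-negative ones. Mgp had 1604 CPM in F3-positive against 469.8 CPM in F3-negative gated cells of the LPCAT3-AKO library, and 2022 against 529.9 CPM in those of Control. Clec11a had 105 against 29.4 CPM in LPCAT3-AKO and 63.6 against 31.0 CPM in Control, and Gas6, a vitamin K dependent ligand of TAM receptors, 654 against 402 and 1352 against 488 CPM. The gate gene Inmt did not follow F3 in Control, with 538 against 304 CPM in LPCAT3-AKO and 328 against 336 CPM in Control. Across all stromal cells, the genes whose values per cell followed F3 most closely were Mgp (Pearson r = 0.29 over 5575 LPCAT3-AKO cells and 0.26 over 5460 Control cells) and Fmo2 (0.29 and 0.23). Mgp followed Bgn, the proteoglycan biglycan, with r = 0.54 and 0.51. These correlations are weak in sparse counts, and the cells share a library and differ in depth, so they are given as descriptions only.

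Gated cells had more transcripts of the enzyme genes Fmo1 and Hsd11b1, of the matrix genes Mgp, Bgn and Mmp3 and of the chemokine gene Cxcl12 than other stromal cells, and fewer of the progenitor gene Pi16 and of Igfbp5. A gene was called higher or lower when it had 50 CPM or more in the higher group, differed at least 1.5-fold, and had a counting interval of the ratio that excludes 1, in both libraries. By this size rule 82 genes were higher (2.78% of the 2945 genes tested) and 77 lower (2.61%). The 82 include Fmo2, Inmt and Gdf10, which chose the cells. Within single libraries 105 were higher (3.42%) and 104 lower (3.39%) in LPCAT3-AKO, and 157 higher (4.98%) and 181 lower (5.74%) in Control. The 82 genes made up 78.1% of the LPCAT3-AKO and 52.2% of the Control list. F3, Clec11a and Vit stayed under 50 CPM and could not be called. The median log2 ratio over all genes tested was -0.03 in LPCAT3-AKO and 0.01 in Control.

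Some enzyme genes were higher in 3 of the lists. Over all genes tested, 2.78% were higher and 2.61% lower. Of 14 measured flavin monooxygenase and methyl transfer genes, 6 could be called. Of these, 3 were higher and none lower, namely Fmo2, Inmt and Fmo1, and 2 of them are gate genes. Fmo1, the related monooxygenase that the gate did not use, had 135 CPM in gated against 62.0 CPM in other stromal cells of the LPCAT3-AKO library (log2 ratio 1.11), and 153 against 59.4 CPM in those of the Control library (1.35). Of 21 xenobiotic and glutathione enzymes 9 could be called and 3 were higher. These were Cyp1b1 (a cytochrome P450 of steroids and xenobiotics, log2 ratios 1.10 and 1.84 in LPCAT3-AKO and Control), Adh1 (an alcohol and retinol dehydrogenase, 0.99 and 1.65) and Cygb (cytoglobin, an oxygen-binding globin of fibroblasts, 0.96 and 1.81). Hsd11b1, which regenerates active glucocorticoid, had 97.1 CPM in gated against 34.1 CPM in other stromal cells of the LPCAT3-AKO library (log2 ratio 1.48), and 102 against 38.4 CPM in those of the Control library (1.38). The glucocorticoid-induced gene Tsc22d3 had 217 against 139 CPM in LPCAT3-AKO and 333 against 192 CPM in Control in gated against other stromal cells, and both were called higher. Among 18 retinoid genes 5 could be called. Of these, the retinal reductase gene Dhrs3 was higher (log2 ratios 0.71 and 1.09), and Aldh1a3, which makes retinoic acid, was lower (-0.77 and -1.83).

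Several secreted and matrix genes were higher, where 2.78% of all genes tested were higher and 2.61% lower. Of 8 vitamin K dependent genes 4 could be called, and Mgp and Gas6 were higher. Gas6 had 439 CPM in gated against 169 CPM in other stromal cells of the LPCAT3-AKO library (log2 ratio 1.37), and 598 against 185 CPM in those of the Control library (1.69). Gas6 was also abundant in Ptprc cells, at 531 and 532 CPM, and the part of free RNA in its level was not tested. Of 22 proteoglycan and cartilage-related genes 9 could be called, and Bgn and Podn were the 2 called higher. Bgn had 852 CPM in gated against 409 CPM in other stromal cells of the LPCAT3-AKO library (log2 ratio 1.06), and 757 against 230.1 CPM in those of the Control library (1.71). Of 20 collagen genes 15 could be called and none was, and their median log2 ratios were 0.25 and 0.19. Mmp3, the stromelysin that degrades matrix, had 1086 CPM in gated against 404 CPM in other stromal cells of the LPCAT3-AKO library (log2 ratio 1.42), and 969 against 276 CPM in those of the Control library (1.81). Of 14 genes of the insulin-like growth factor system 9 could be called, and Igf1, Igfbp3 and Igfbp7 were higher and Igfbp5 lower. In gated against other stromal cells, Igfbp3 had 459 against 173 CPM in LPCAT3-AKO and 419 against 159.9 CPM in Control, while Igfbp5 had 976 against 2954 CPM in LPCAT3-AKO and 1030.0 against 3571 CPM in Control. Of 23 Wnt genes 5 could be called, and the Wnt antagonists Sfrp1 and Sfrp2 were the members called higher. Of 17 BMP, GDF and activin genes 3 could be called. The gate gene Gdf10 was the ligand called higher there, and Tgfb2 was lower (-0.87 and -0.89).

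Chemokine genes were higher or lower by member. Of 24 chemokine and cytokine genes 15 could be called. Of these, 5 were higher, namely Cxcl12, Cxcl13, Cxcl14, Cxcl16 and the stem cell factor gene Kitl, and 3 were lower, namely Ccl2, Cxcl2 and Il33. The shares over all genes tested were 2.78% higher and 2.61% lower. Cxcl12, which retains haematopoietic and immune cells through CXCR4, had 333 CPM in gated against 140.5 CPM in other stromal cells of the LPCAT3-AKO library (log2 ratio 1.24), and 558 against 130.1 CPM in those of the Control library (2.09). Cxcl13 depended on the gate: its ratio reversed in at least 1 library with a sum of 5 or more, with F3 required or without Inmt in the gate. Kitl had log2 ratios of 1.09 and 1.31. Ccl2, which attracts monocytes, had 109 CPM in gated against 229.9 CPM in other stromal cells of the LPCAT3-AKO library (log2 ratio -1.07), and 304 against 570.0 CPM in those of the Control library (-0.91). Among 16 complement genes, 9 of which could be called, the protease gene C2 was higher (log2 ratios 1.42 and 1.46), and Cd55, a brake of the cascade that also marks progenitors, was lower. Of 20 coagulation genes, the list to which F3 belongs, 8 could be called, none was called higher and the thrombomodulin gene Thbd was lower (-0.59 and -0.98). Further genes with the highest ratios were Nmb, a neuropeptide gene (1.87 and 2.36), Slco2b1, an organic anion transporter (1.80 and 1.95), Steap4, a metalloreductase (1.48 and 2.32), and Serpina3n, a protease inhibitor (1.42 and 1.43).

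**Figure D2:**
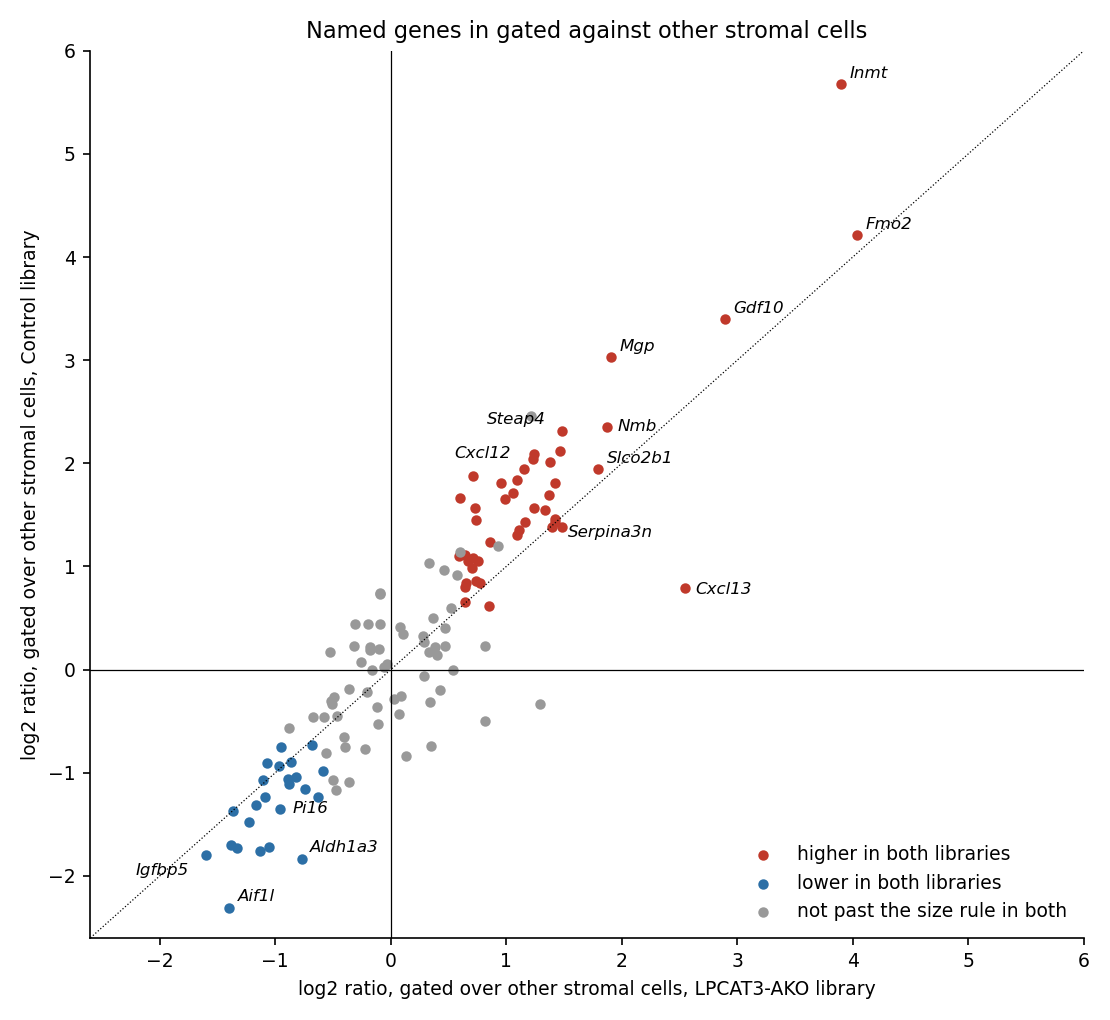
Log2 ratios of gated over other stromal cells for the named genes with 50 CPM or more in any group, in the LPCAT3-AKO library (x axis) and the Control library (y axis). Red genes were higher and blue genes lower in both libraries by the size rule, grey genes passed in neither or in 1, and the dotted line marks equal ratios. Inmt lies far above it (3.90 and 5.67) and Cxcl13 far below (2.55 and 0.79).

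Progenitor genes were lower in gated cells. Of 8 interstitial progenitor markers 7 could be called. Of these, 4 were lower (Pi16, Cd55, Anxa3 and Sema3c) and none higher, with median log2 ratios of -0.74 in LPCAT3-AKO and -1.09 in Control. The shares over all genes tested were 2.61% lower and 2.78% higher. Pi16 had 1327 CPM in gated against 2579 CPM in other stromal cells of the LPCAT3-AKO library (log2 ratio -0.96), and 1008 against 2572 CPM in those of the Control library (-1.35). Dpp4 passed in Control alone, with log2 ratios of -0.36 and -1.09. The other low genes with the lowest ratios included Aif1l, an actin-binding protein gene (-1.40 and -2.31), Uchl1, a deubiquitinase gene (-1.38 and -1.70), and Ackr2, a scavenging chemokine receptor gene (-1.22 and -1.48). Of 8 committed preadipocyte markers 6 could be called in both libraries, and Ggt5 was the 1 called higher, while the list's median log2 ratios were 0.33 in LPCAT3-AKO and 1.01 in Control. The lipoprotein lipase gene Lpl had 2062 CPM in gated against 1635 CPM in other stromal cells of the LPCAT3-AKO library (log2 ratio 0.33), and 1946 against 947 CPM in those of the Control library (1.04), passing in Control alone. Of 22 adipocyte differentiation genes 7 were abundant enough to be called, and none was. Of 23 genes of phospholipid remodelling only 2 were abundant enough, and neither was called.

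Set against more narrowly drawn neighbours, gated cells lay between the progenitor and preadipocyte sides for Lpl and above both for Mgp and F3. Other stromal cells that met only the Dpp4/Pi16 rule (3 or more UMIs together, both detected) numbered 3376 in LPCAT3-AKO and 3932 in Control. Those that met only the like rule for Col15a1 and Icam1 numbered 567 and 420. Cells that met both rules were left out of these groups, though not out of the gated cells. Against the first, 155 genes were higher (5.25% of genes tested) and 197 lower (6.67%), and against the second 180 were higher (5.99%) and 124 lower (4.13%). Lpl had 2062 and 1946 CPM in gated cells of LPCAT3-AKO and Control, 467 and 284 CPM in Dpp4/Pi16 cells, and 5098 and 4676 CPM in Col15a1/Icam1 cells. Mgp was above both, with 634 and 721 CPM in gated, 71.1 and 47.1 CPM in Dpp4/Pi16 and 258 and 182 CPM in Col15a1/Icam1 cells. F3 had 3.31 and 2.18 CPM in the Dpp4/Pi16 and 11.6 and 14.7 CPM in the Col15a1/Icam1 cells, both below the gated cells. Once cells that met the Dpp4/Pi16 rule were left out of gated and other stromal cells alike, 35 of 69 named genes kept their call against other stromal cells, 33 kept their direction without passing and Ildr2 reversed.

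Gated cells met the Dpp4/Pi16 rule less often than other stromal cells and the Col15a1/Icam1 rule more often. The Dpp4/Pi16 rule was met by 219 of 458 LPCAT3-AKO gated cells (47.8%, 43.2 to 52.5) and 80 of 250 Control gated cells (32.0%, 26.3 to 38.2), against 70.2% and 79.1% of other stromal cells. The Col15a1/Icam1 rule was met by 27.9% and 28.8% of gated cells, against 15.3% and 11.7% of other stromal cells. Among gated cells, both rules were met by 10.7% and 5.6%, and neither by 34.9% and 44.8%. Those that met both had median depths of 15964 UMIs in LPCAT3-AKO and 17502 UMIs in Control. Gated cells that met the Dpp4/Pi16 rule had median depths of 12426 and 11917 UMIs, against 7424 and 7181.5 UMIs in gated cells that did not, so depth moved with this split. F3 was concentrated in the gated cells outside that rule in LPCAT3-AKO, with 72.2 CPM (60.8 to 85.1) against 7.87 CPM (4.99 to 11.8) inside it. In Control it had 32.7 CPM (23.7 to 44.1) outside and 26.5 CPM (17.5 to 38.5) inside, with overlapping intervals. Mgp had 1054 and 965 CPM outside, against 351 and 406 CPM inside.

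Gated cells differed by the gate genes they had. Of the gated cells, 142 in LPCAT3-AKO and 47 in Control had Fmo2 and Inmt without Gdf10, 75 and 33 had Inmt and Gdf10 without Fmo2, 136 and 101 had Fmo2 and Gdf10 without Inmt, and 105 and 69 had all 3. F3 and Mgp peaked where all 3 were detected. F3 had 83.7 CPM (66.0 to 105) in LPCAT3-AKO and 54.2 CPM (36 to 78.4) in Control cells with all 3 genes, against 6.96 CPM (3.60 to 12.2) and 21.9 CPM (10.5 to 40.2) in cells with Fmo2 and Inmt, where 1 Control cell held 7 of the 10 UMIs. Mgp had 1649.9 and 1589 CPM in cells with all 3, and 338 and 468 CPM in cells with Fmo2 and Inmt.

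Gated cells with Gdf10 differed from those without it, which all had Fmo2 and Inmt, at 52 genes that were higher (1.8% of 2896 tested) and 58 that were lower (2.0%) in both libraries. The 52 include Gdf10 itself, by which the cells were split. Cells with Gdf10 had more Nrep (168.7 against 52.8 CPM in LPCAT3-AKO and 148 against 59.1 CPM in Control), a regulator of fibroblast differentiation, and more of the amine oxidase gene Aoc3 (116 against 44.7 and 109.8 against 32.8 CPM). Cells without Gdf10 had more Gpx3, the extracellular glutathione peroxidase, with 4960.3 CPM in LPCAT3-AKO and 2659 CPM in Control against 1393 and 943 CPM in cells with Gdf10. They also had more of the lysyl oxidase gene Lox (544 against 198 CPM in LPCAT3-AKO and 439.9 against 184 CPM in Control), of the thrombospondin gene Thbs2 (801 against 303 and 606 against 274 CPM) and of the interferon-inducible chemokine gene Cxcl10 (218 against 74.9 and 276 against 81.0 CPM). These genes were picked after their values were seen.

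Along the sum of gate UMIs, gated cells with 10 or more had 74 genes higher (2.54% of 2919 tested) and 82 lower (2.81%) than those with 3 to 4, in both libraries. The 74 include Fmo2, Inmt and Gdf10, whose sum made the split. The higher genes included Cpe, a peptide-processing carboxypeptidase, with 75.1 against 17.6 CPM in LPCAT3-AKO and 125 against 9.01 CPM in Control, and Deptor, an mTOR inhibitor, with 73.7 against 24.3 and 113 against 30 CPM. The lower genes included the growth factor gene Ptn (16 against 128 and 29.6 against 100.1 CPM) and the matrix genes Postn (794 against 2406 and 1021 against 2050.4 CPM) and Vcan (150.2 against 326 and 112 against 310.2 CPM). They too were picked after their values were seen.

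**Figure D3:**
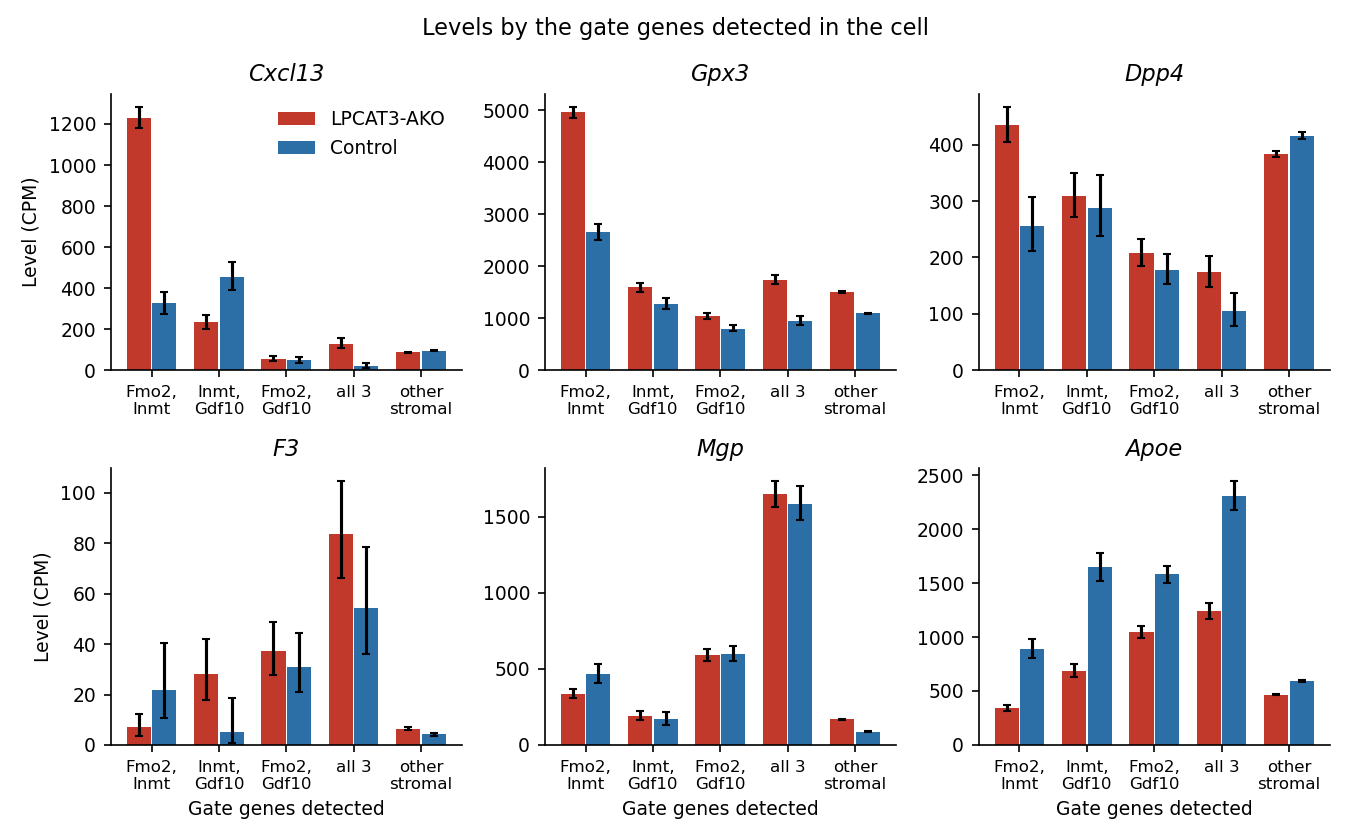
Levels of 6 genes (CPM, bars from 0) in gated cells by the gate genes detected, and in other stromal cells. Red bars are the LPCAT3-AKO and blue bars the Control library, with 95% counting intervals. Cxcl13 and Gpx3 stand out in LPCAT3-AKO cells with Fmo2 and Inmt (1230.5 and 4960.3 CPM), F3 and Mgp in cells with all 3 genes, and Apoe is lower in LPCAT3-AKO than in Control in each combination.

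Gated cells took a larger share of stromal cells in the LPCAT3-AKO library. They were 458 of 5575 stromal cells in LPCAT3-AKO, or 8.22% (7.51 to 8.97), and 250 of 5460 in Control, or 4.58% (4.04 to 5.17), a ratio of 1.79 (1.53 to 2.10). The ratio depended on the genes detected. It was 2.96 (2.11 to 4.21) for cells with Fmo2 and Inmt, 2.23 (1.46 to 3.46) for cells with Inmt and Gdf10, 1.32 (1.01 to 1.72) for cells with Fmo2 and Gdf10, and 1.49 (1.09 to 2.05) for cells with all 3. Inmt itself differed between the libraries in stromal cells as a whole. Its level in gated cells is tied to the gate, which used Inmt, and is not set against this. Inmt was detected in 13.3% of LPCAT3-AKO and 5.75% of Control stromal cells, a ratio of 2.32, and in 8.59% and 3.81% after thinning to 4000 UMIs, a ratio of 2.26. The ratios were 1.09 for Fmo2 and 1.06 for Gdf10, or 1.17 and 1.13 after thinning. Genes outside the gate also differed in detection across the stroma, with unthinned ratios of 1.71 for F3, 1.37 for Clec11a and 1.28 for Mgp. In Ptprc cells Inmt was detected in 1.03% and 0.421%. In other stromal cells Inmt had 21.7 CPM (20.4 to 23.0) in LPCAT3-AKO and 5.58 CPM (4.95 to 6.27) in Control. A gate on Fmo2 and Gdf10 alone gave a ratio of 1.38.

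The larger share also went with the progenitor side of the gate. Gated cells that met the Dpp4/Pi16 rule were 3.93% (3.43 to 4.47) of LPCAT3-AKO and 1.47% (1.16 to 1.82) of Control stromal cells, a ratio of 2.68 (2.07 to 3.51). Those that did not were 4.29% (3.77 to 4.85) and 3.11% (2.67 to 3.61), and the ratio of these shares was 1.38 (1.13 to 1.69). The stroma outside the Dpp4/Pi16 rule was itself larger in LPCAT3-AKO, at 31.7% against 23.0% of stromal cells, and within it gated cells were 13.5% in both libraries (ratio 1.002, 0.820 to 1.23). Whether Inmt, the progenitor side or the makeup of the stroma underlies the larger share was not tested.

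**Figure D4:**
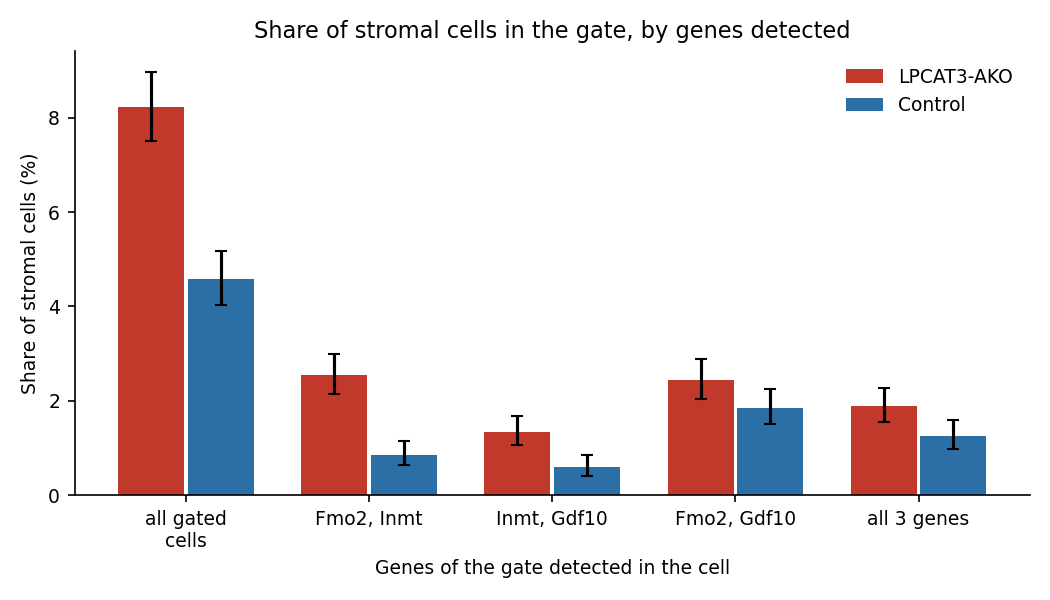
Share of stromal cells inside the gate (%), for all gated cells and by the gate genes detected, in the LPCAT3-AKO library (red) and the Control library (blue), with exact 95% binomial intervals. The bars for Fmo2 and Inmt lie farthest apart (2.55% and 0.861%), and those for Fmo2 and Gdf10 nearest in proportion (2.44% and 1.85%).

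Between the libraries, gated cells of LPCAT3-AKO had more transcripts of Socs1, Cxcl13, Gpx3 and Cdkn1c, and fewer of Ccl2, Cxcl1, Apoe and several heat shock genes. By the size rule 74 genes were higher in LPCAT3-AKO than in Control gated cells (2.4% of 3087 tested) and 64 lower (2.07%). In other stromal cells 42 were higher (1.38%) and 33 lower (1.08%). The lists shared 9 higher genes, which were 12.2% of those in gated and 21.4% of those in other stromal cells, and 16 lower genes, which were 25% and 48.5%. The all-gene median log2 ratio was -0.04 in gated and -0.01 in other stromal cells. The difference between gated and other stromal cells was not tested, and gated cells are far fewer.

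Genes that restrain cytokine signalling went both ways. Socs1, an inhibitor of cytokine receptor signalling, had 97.5 CPM in LPCAT3-AKO and 25.7 CPM in Control gated cells (log2 ratio 1.88; interval of the ratio 2.90 to 5.05), the highest ratio among the genes named. Its relative Socs3 had 577 CPM in LPCAT3-AKO and 277 CPM in Control gated cells (log2 ratio 1.05), and the protease inhibitor gene Serpina3n 347 CPM in LPCAT3-AKO and 126 CPM in Control gated cells (log2 ratio 1.46). These genes were also higher in other stromal cells, with log2 ratios of 1.25, 1.13 and 1.47, so they were not confined to the gate. The lower genes of the same list of NF-kB and cytokine genes were Nfkb1 (-0.84), Tnfaip3 (-0.62) and the adhesion gene Icam1 (-0.89). Of 23 interferon genes 13 were abundant enough in gated cells. Of these, Irf7 (log2 ratio 1.34), Ifi27l2a (0.91) and Bst2 (0.73) were higher and Isg15 (-0.60) was lower, and the list's median was 0.02. Over all genes tested in gated cells, 2.4% were higher and 2.07% lower.

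Chemokines differed in both directions. Cxcl13, which attracts B cells, had 515 CPM in LPCAT3-AKO and 165 CPM in Control gated cells (log2 ratio 1.63; interval of the ratio 2.80 to 3.48), and Ccl8 was also higher. Ccl2 had 109 CPM in LPCAT3-AKO and 304 CPM in Control gated cells (log2 ratio -1.47; interval of the ratio 0.319 to 0.401), Cxcl1, a neutrophil attractant, had 375 CPM in LPCAT3-AKO and 827 CPM in Control gated cells (log2 ratio -1.14), and Cxcl2 and Cxcl12 were lower too. Ccl2 and Cxcl1 were also lower in other stromal cells (-1.31 and -0.82). The Cxcl13 difference sat in particular gated cells. In cells with Fmo2 and Inmt but no Gdf10 it had 1230.5 CPM (1179 to 1284) in LPCAT3-AKO and 326 CPM (276 to 383) in Control, and it was detected in 68.3% (60.0 to 75.9) and 36.2% (22.7 to 51.5) of them. In cells with Inmt and Gdf10 it was instead 235 in LPCAT3-AKO and 454 CPM in Control, and in cells with Fmo2 and Gdf10 56.9 and 48.6 CPM. Gated cells that met the Dpp4/Pi16 rule had 781 and 190.3 CPM, and those that did not 119 and 145 CPM. A single cell held 24.1% of the LPCAT3-AKO Ccl2 UMIs. The limit of 25% for a call applied to the library with the higher level, here Control, where a single cell held 14.7%.

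Gpx3 had 2651 CPM in LPCAT3-AKO and 1279 CPM in Control gated cells (log2 ratio 1.05; interval of the ratio 1.99 to 2.16), and it too was highest in cells with Fmo2 and Inmt, at 4960.3 CPM (4856 to 5067) in LPCAT3-AKO and 2659 CPM (2511 to 2813) in Control. Matrix and regulatory genes higher in LPCAT3-AKO were Cilp, a cartilage and fibrosis matrix protein gene (131 and 41.1 CPM, log2 ratio 1.65), Adamts4, an aggrecan-cleaving protease gene (102 and 32.6 CPM, log2 ratio 1.61), Fbln2 (0.69), Col12a1 (0.81), Emilin1 (0.62) and Igfbp6 (0.65). Cilp was not confined to the gate. In stromal cells without any gate UMI it had 92.5 CPM in LPCAT3-AKO and 27.3 CPM in Control. Thbs1, the matrix protein thrombospondin 1, had 134 CPM in LPCAT3-AKO and 62.2 CPM in Control gated cells (log2 ratio 1.10), and Cdkn1c, a cell cycle inhibitor, had 182 CPM in LPCAT3-AKO and 82.3 CPM in Control gated cells (log2 ratio 1.14). Over all genes tested, 2.4% were higher in LPCAT3-AKO gated cells. Of 8 progenitor markers 7 were abundant enough, and 3 were higher in LPCAT3-AKO gated cells. These were Dpp4 (0.61), Wnt2 (0.74) and Sema3c (0.60), beside the larger share of cells that met the Dpp4/Pi16 rule.

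The carrier genes Apoe and Rbp4 and 6 stress genes were lower. Apoe, the apolipoprotein that carries lipid between cells, had 775 CPM in LPCAT3-AKO and 1618 CPM in Control gated cells (log2 ratio -1.06; interval of the ratio 0.457 to 0.501). It was lower in LPCAT3-AKO in every combination of gate genes, from 341 against 893 CPM in cells with Fmo2 and Inmt to 1242 against 2309 CPM in cells with all 3. Apoe was far more abundant in Ptprc cells, at 5463 CPM in LPCAT3-AKO and 8538 CPM in Control, and the part of free RNA from them was not tested. The retinol carrier gene Rbp4 had 47.0 CPM in LPCAT3-AKO and 88.3 CPM in Control gated cells (log2 ratio -0.89). Of 27 immediate-early and heat shock genes, 23 of them abundant enough in gated cells, 6 were lower and none higher, and in other stromal cells 5 were lower and none higher. Over all genes tested, 2.07% were lower in gated and 1.08% in other stromal cells. Those lower in gated cells included Hspa1a (-0.93), Hspa1b (-0.82), Hsph1 (-0.77) and Fosb (-0.81), and the list's median was -0.42 in gated and -0.27 in other stromal cells. Further lower genes were Fam13a, linked in humans to fat distribution (36.2 and 89.6 CPM, log2 ratio -1.28), Greb1, an oestrogen-induced gene (-1.30), Vegfa, which drives vessel growth (-0.95), and Tsc22d3 (-0.62). Of the genes that mark these cells, Mgp (-0.19) missed the size rule. F3 (0.16) and Clec11a (0.19) stayed under 50 CPM in both libraries and could not be called. Fmo2 (-0.18), Inmt (0.01) and Gdf10 (-0.39) chose the cells in both libraries. Their levels in gated cells are tied to the gate, so these ratios do not show whether the libraries are alike.

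Part of the list changed once cells that met the Dpp4/Pi16 rule were left out, an alternative chosen after seeing the data. Of the 48 named genes called between the libraries, 15 kept their call, 31 kept their direction without passing and 2 reversed, with 239 LPCAT3-AKO and 170 Control gated cells left. Among those that kept it were Adamts4 (1.29), Cdkn1c (1.09), Serpina3n (1.04), Fam13a (-1.05), Rbp4 (-1.08) and Apoe (-0.68). Socs1 dropped below the rule at 0.44 and Gpx3 at 0.33, while Cxcl13 and Bst2 changed sign, to -0.29 and -0.22. F3 itself passed in these cells, with 72.2 CPM in LPCAT3-AKO and 32.7 CPM in Control (log2 ratio 1.12).

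**Figure D5:**
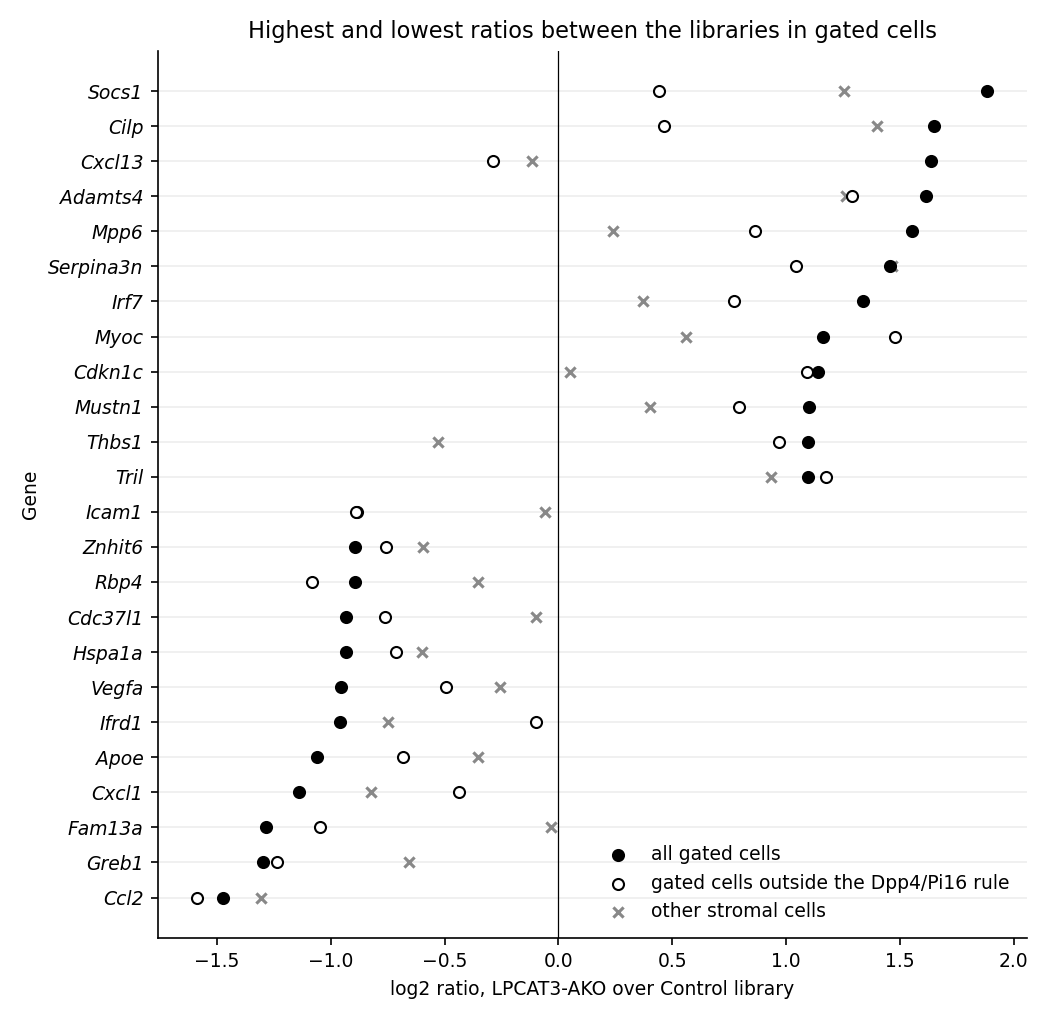
Log2 ratios of the LPCAT3-AKO over the Control library for the 12 highest and 12 lowest named genes in gated cells (filled circles), in gated cells that do not meet the Dpp4/Pi16 rule (open circles) and in other stromal cells (crosses). Adamts4, Cdkn1c and Fam13a lie beyond 1 log2 unit with or without the Dpp4/Pi16 cells, Cxcl13 crosses 0, and Serpina3n has about the same ratio in other stromal cells (1.47).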

How the data were processed

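Single-cell RNA of 1 LPCAT3-AKO and 1 Control library was used, as raw UMI counts per gene and cell barcode that the authors deposited as 10x matrices. Per the submitters' processing notes, Cell Ranger 6.1.2, Seurat 4.10 and the mm10 build were used. The matrices list 32285 genes, 40 of them under shared symbols. Counts were summed over the cells of a group and scaled to CPM, and log2 ratios used CPM + 1. Intervals are exact 95% binomial or Poisson intervals and cover counting error only. A gene with over 25% of its UMIs of the higher library in 1 cell was not called between libraries. The size rule was tested on simulated Poisson counts. These had no spread between cells or libraries beyond counting error, so calls under such spread were not checked. Doublets were not removed. As an alternative, Scrublet scores in scanpy 1.11.5 removed 43 LPCAT3-AKO and 29 Control gated cells. These were 9.39% and 11.6% of gated cells, against 6.49% and 7.50% of other stromal cells. After this removal, all 69 genes named against other stromal cells and 47 of the 48 named between the libraries kept their call. Python 3.11.15, numpy 2.4.6, scipy 1.17.1, pandas 2.3.3 and scikit-learn 1.9.0 were used. Named genes were the 6 markers, the 20 highest and 12 lowest against other stromal cells, the 12 highest and 12 lowest between libraries and up to 6 of each of 41 gene lists. Members and lists were chosen with earlier results of these data known. A few genes meeting this rule are not shown here.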

Additional observations from a re-analysis of the deposited data

Results flagged for a closer look

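5 genes had log2 ratios of LPCAT3-AKO over Control with opposite signs in gated and in other stromal cells. They were called by the size rule in gated cells only. In other stromal cells their ratios were smaller and fell short of that rule, so no difference between the libraries is read there. The difference between gated and other stromal cells was not tested. The chemokine gene Cxcl13 had a log2 ratio of LPCAT3-AKO over Control of 1.63 in gated cells and -0.12 in other stromal cells. The thrombospondin gene Thbs1 had a log2 ratio of LPCAT3-AKO over Control of 1.10 in gated cells and -0.53 in other stromal cells. The retinoic acid synthesis gene Aldh1a3 had a log2 ratio of LPCAT3-AKO over Control of 0.96 in gated cells and -0.10 in other stromal cells. The progenitor marker Dpp4 had a log2 ratio of LPCAT3-AKO over Control of 0.61 in gated cells and -0.12 in other stromal cells. A second chemokine gene, Cxcl12, had a log2 ratio of LPCAT3-AKO over Control of -0.74 in gated cells and 0.11 in other stromal cells.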

How the results depend on the processing

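No paired analysis was possible because each group has 1 library, and no replicate could be left out. The share ratio of 1.79 moved to 1.49 with all 3 genes detected, 1.38 without Inmt in the gate and 1.002 without Dpp4/Pi16 cells. Against 82 genes higher and 77 lower in gated than in other stromal cells, a minimum of 20 CPM gave 133 and 136, a ratio of 2 gave 29 and 18, F3 required gave 142 and 195, and a sum of 10 or more gave 136 and 172. The lower count alone moved to 117 with a sum of 5 or more, 189 with all 3 genes, 124 with the mean over cells, 142 without Inmt and 33 without Dpp4/Pi16 cells. Against 74 higher and 64 lower in LPCAT3-AKO, a sum of 5 or more gave 114 and 97, all 3 genes 135 and 141, 20 CPM 173 and 223, a ratio of 2 gave 16 and 5, F3 required 139 and 150, and a sum of 10 or more 161 and 168. The lower count was 111 after thinning and the higher count 49 without Inmt.

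Log2 ratios that reversed between gated and other stromal cells were Cxcl13 -0.51 with a sum of 5 or more, Sfrp2 -0.36 with all 3 genes, Cxcl13 -0.12 with F3 required, Cxcl13 -0.61 without Inmt, Cxcl13 -0.93 with a sum of 10 or more, Ildr2 0.53 without Dpp4/Pi16 cells, and Tmem176a -0.25 and Tmem176b -0.089 against all other Dcn cells. Those that reversed between the libraries were Ccl2 0.56, Wnt2 -0.19, Ier5 0.11 and Isg15 0.059 with all 3 genes, Nmb 1.58, Serpina3n -0.11, Irf7 -0.48, Myoc -0.62, Mustn1 -0.061, Cdc37l1 0.030, Dpp4 -0.34, Wnt2 -0.24, Aldh1a3 -0.40, Gpx3 -0.59, Col12a1 -0.15, Fbln2 -0.078, Emilin1 -0.21, Socs3 -0.0095, Tnfaip3 0.33 and Bst2 -0.85 with F3 required (83 LPCAT3-AKO and 31 Control cells), Col12a1 -0.22 without Inmt, Wnt2 -0.010 and Isg15 0.066 with a sum of 10 or more, and Cxcl13 -0.29 and Bst2 -0.22 without Dpp4/Pi16 cells. The cause was not tested. Alternatives without Inmt, with a sum of 10 or more, without Dpp4/Pi16 cells or with combinations weighted alike were chosen after seeing the data. Under a Dcn minimum of 20, 1000 detected genes, another pseudocount and scaling without ribosomal and mitochondrial genes, all 48 genes named between the libraries and all 69 named against other stromal cells kept their call. With F3 required, 8 of the 48 kept it, 24 kept their direction without passing and 16 reversed. With all 3 genes detected 28 of the 48 kept it, without Inmt 28 and with a sum of 10 or more 33. Of the 69, the calls kept under these settings numbered 61 with F3 required, 63 with all 3 genes, 65 without Inmt and 64 with a sum of 10 or more.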
